A study of Mus musculus with 12 samples.

Results

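The 6 genes that encode the mouse receptors for the constant (Fc) part of immunoglobulin G, with their shared signaling subunit and the neonatal Fc receptor, were followed across 12 libraries of M2-like polarized bone marrow–derived macrophages (BMDM). They were found by symbol among 56748 genes listed, and all 6 were among the 15033 genes expressed highly enough to be tested. Fcgr1, Fcgr3 and Fcgr4 encode activating receptors, Fcgr2b the inhibitory receptor, Fcer1g the common γ chain, and Fcgrt the neonatal Fc receptor.

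BMDM from C57BL/6J mice had been grown with M-CSF at 20 ng/mL and polarized with IL4 at 10 ng/mL for 48 hours. They then received 1 of 4 treatments for 72 hours, with 3 libraries each. Controls had unsupplemented medium. The second group had diluted supernatant of YUMM5.2 eGFP cells, a mouse melanoma line carrying the reporter without the Ifnb1 transgene (eGFP supernatant). The third had supernatant of YUMM5.2 Ifnb1eGFP cells set to 1500 pg/mL IFNβ (Ifnb1eGFP supernatant), and the fourth recombinant IFNβ at 1500 pg/mL (rIFNβ). Donor melanoma cells of both lines had been kept in doxycycline (Dox) at 1 μg/mL for 72 hours, which switches on the transgene, so both supernatants came from Dox-treated cultures and the other 2 conditions did not. The eGFP supernatant was diluted at the ratio used for its Ifnb1eGFP counterpart. The paper gives the melanoma lines a different base medium from that of BMDM, with puromycin added. Supernatants may therefore have differed from BMDM medium in these as well. The labels do not say whether replicates came from separate mice, so p values measure the spread between these libraries, which may be technical.

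Antibody-coated targets cross-link activating Fcγ receptors on macrophages. The immunoreceptor tyrosine-based activation motifs (ITAM) of the γ chain are then phosphorylated by Src family kinases and recruit the kinase Syk, which leads to phagocytosis, an oxidative burst and cytokine release. Fcgr2b carries an inhibitory motif (ITIM) instead, which recruits the phosphatase SHIP1 and dampens the same signal, so the level of activating relative to inhibitory receptors sets the threshold of a macrophage for immune complexes. Fcgrt acts apart from both: it binds immunoglobulin G in acidic endosomes and returns it from degradation. Fcgr1 is a known target of interferons.

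Library totals ran from 31526034 to 45348457 counts. All 6 macrophage markers were present in every library, with Lyz2 the highest at up to 12800 CPM (counts scaled to a common library total). Their sum moved with condition, from 14100 to 15200 CPM in control and 17800 to 18400 CPM in eGFP supernatant to 9150 to 9290 CPM in Ifnb1eGFP supernatant and 8520 to 8620 CPM with rIFNβ. The list moved in both directions. In Ifnb1eGFP against eGFP supernatant Lyz2 (log2 fold change -1.59) and Itgam (-1.99) fell, Adgre1 (0.21), Cd68 (0.35) and Mertk (0.32) rose, and the median of the 6 was 0.12. Of the 4 IL4-driven M2-like markers Mrc1 reached 839 CPM, Chil3 129 CPM and Retnla 71.3 CPM, whereas Arg1 stayed at or below 0.877 CPM. Their sum was 738 to 887 CPM in control and 844 to 960 CPM in eGFP supernatant. It was 998 to 1020 CPM in Ifnb1eGFP supernatant and 825 to 956 CPM with rIFNβ. By the test described below, Chil3 rose in Ifnb1eGFP against eGFP supernatant (log2 fold change 0.77) and in rIFNβ against control (0.67). Mrc1, Retnla and Arg1 passed in neither. Summed markers of B cells, which express Fcgr2b, ran from 0.604 to 0.804 CPM in controls, from 0.657 to 0.778 CPM in eGFP supernatant, from 1.17 to 1.54 CPM in Ifnb1eGFP supernatant and from 1.19 to 1.63 CPM with rIFNβ. NK cell markers summed to 0.223 to 0.473 CPM in controls, 0.531 to 0.585 CPM in eGFP supernatant, 0 to 0.0253 CPM in Ifnb1eGFP supernatant and 0.0593 to 0.0758 CPM with rIFNβ. Mast cell and basophil markers summed to 0.636 to 0.995, 0.455 to 0.728, 0.379 to 0.63 and 0.475 to 1.36 CPM in the same order, with 2 of these 6 (Tpsb2 and Mcpt4) at 0 in all 12 libraries. Neutrophil markers summed to 4.31 to 5.75 CPM in controls and 4.34 to 5.03 CPM in eGFP supernatant, against 0.397 to 0.582 CPM in Ifnb1eGFP supernatant and 0.237 to 1.01 CPM with rIFNβ, and S100a8 reached 5.72 CPM. T cell markers, nearly all Cd4, summed to 3.75 to 4.77 CPM in controls, 4.09 to 5.05 CPM in eGFP supernatant, 9.66 to 9.96 CPM in Ifnb1eGFP supernatant and 8.06 to 8.84 CPM with rIFNβ. Among melanocyte markers Mitf, also used by macrophages, reached 167 CPM, while Tyrp1 was at 0 throughout and Tyr, Dct, Mlana and Pmel were each at most 0.732 CPM. The part of other cells in the results below was not tested. One library stood apart from its group. The summed level of 6 interferon-stimulated genes (Isg15, Ifit1, Ifit3, Rsad2, Mx1 and Oas1a) was 586 CPM in replicate 2 of eGFP supernatant, against 138 and 82.4 CPM in replicates 1 and 3 and 80.9 to 118 CPM in controls. The same sum was 6750 to 7830 CPM in Ifnb1eGFP supernatant and 7200 to 7530 CPM with rIFNβ. The members' fold changes against eGFP supernatant, their summed ratio and the counts of the pathway lists are therefore also given without that library.

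Fcgr2b, Fcgr4, Fcgr3 and Fcer1g lie in 1 stretch of chromosome 1 (GRCm39, GENCODE M39). Fcgr2b (ENSMUSG00000026656) spans chr1:170786186-170804177 on the minus strand, Fcgr4 (ENSMUSG00000059089) chr1:170846466-170857330 on the plus strand, Fcgr3 (ENSMUSG00000059498) chr1:170878738-170893549 on the minus strand and Fcer1g (ENSMUSG00000058715) chr1:171057141-171062219 on the minus strand. Fcgr1 (ENSMUSG00000015947) is at chr3:96190225-96201338 and Fcgrt (ENSMUSG00000003420) at chr7:44742412-44756819, both on the minus strand. All 6 are annotated as protein coding.

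Fcgr2b and Fcgr3 are paralogs with near-identical extracellular exons, which bears on how their reads were divided. Of all 75-base windows in the annotated transcripts, 1.54% of those of Fcgr2b were also found in Fcgr3 and 2.57% of those of Fcgr3 in Fcgr2b. Within the canonical coding sequences the shares were 11.68% and 12.93%. The longest identical run in both coding sequences was 129 bases, from position 278 to 406 of Fcgr2b and 263 to 391 of Fcgr3, counted from the first base of the start codon. It is shown because a read inside it fits either gene.

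Fcgr2b and Fcgr3 shared run: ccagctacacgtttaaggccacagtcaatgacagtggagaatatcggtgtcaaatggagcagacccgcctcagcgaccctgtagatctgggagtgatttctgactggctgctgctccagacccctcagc

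Windows of Fcgr2b and Fcgr3 were also found in genes that are not members, 2.24% and 1.7% of them. None of the windows of the other 4 genes occurred in transcripts of another gene. All of these searches were on the sense strand of transcripts alone. The deposited values are estimated counts, and those of Fcgr2b and Fcgr3 were not whole numbers in 12 of 12 libraries, whereas those of the other 4 were whole in all. Fcgr2b and Fcgr3 values are therefore less certain than those of the others, and the part of this division in their results was not tested.

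The promoters of the Fcγ receptor genes are shown because these 4 genes took different courses after IFNβ. Sequences are the 150 bases before the transcription start, read on the gene's strand, from RefSeq (GRCm38.p6). They lie at chr3:96293970-96294119 for Fcgr1, chr1:171018776-171018925 for Fcgr4, chr1:171059404-171059553 for Fcgr3 (the first of its pair of entries) and chr1:170976072-170976221 for Fcgr2b. Capitals mark matches, on either strand, to 3 motifs searched in 250 bases before the start: TTCNNNGAA, the interferon-γ activated sequence (GAS), a pair of GAAA runs with NN between them, the core of the interferon-stimulated response element (ISRE), and GAGGAA, the core of sites for the myeloid factor PU.1.

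Fcgr1 promoter: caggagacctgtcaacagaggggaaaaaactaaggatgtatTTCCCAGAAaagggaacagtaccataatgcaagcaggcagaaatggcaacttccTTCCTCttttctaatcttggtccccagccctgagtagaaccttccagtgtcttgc

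Fcgr4 promoter: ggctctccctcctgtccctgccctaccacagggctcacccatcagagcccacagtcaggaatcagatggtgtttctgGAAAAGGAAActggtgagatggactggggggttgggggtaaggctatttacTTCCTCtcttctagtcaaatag

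Fcgr3 promoter: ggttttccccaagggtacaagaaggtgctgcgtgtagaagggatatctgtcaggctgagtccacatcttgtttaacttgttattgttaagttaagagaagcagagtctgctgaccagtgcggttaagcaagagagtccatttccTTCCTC

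Fcgr2b promoter: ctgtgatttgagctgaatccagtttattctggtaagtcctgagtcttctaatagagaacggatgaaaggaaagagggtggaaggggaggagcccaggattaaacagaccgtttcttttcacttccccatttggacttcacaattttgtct

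Fcgr1 held a GAS match (TTCCCAGAA, from -109 to -101) and a PU.1 match (TTCCTC, the reverse complement of the motif, from -55 to -50). Fcgr4 held an ISRE match (GAAAAGGAAA, from -73 to -64) and a PU.1 match from -22 to -17. Both Fcgr3 entries held a PU.1 match alone, and Fcgr2b, Fcer1g and Fcgrt held none of the 3 in this window. No matches overlapped. Among 32851 promoters of the same table, 7.0% held the GAS letters, 3.0% the ISRE letters and 23.3% the PU.1 letters within 250 bases. A match is a description of the letters and not a binding site.

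Before any IFNβ, the activating side was mostly Fcgr3. In levels per length, as CPM per kilobase (kb) of exon, control BMDM held 206.4 ± 9.06 (SD, n = 3) for Fcgr3, 44.19 ± 2.91 for Fcgr4, 15.06 ± 1.47 for Fcgr1 and 4.429 ± 0.196 for Fcgr2b. Fcer1g stood above all of them at 451.8 ± 10.2, the 99.6 percentile of the 14962 tested genes with a known length. Fcgrt was at 10.1 ± 0.197, the 80 percentile. Fcgr2b was thus the lowest of the 6 in untreated cells, at the 63.5 percentile, and its level was not near the limit of detection, with 787 to 1080 counts in each control library.

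The question of the main comparison was what IFNβ from melanoma cells does to macrophages, with the eGFP supernatant as reference. Fcgr1 and Fcgr4 rose, Fcgr2b fell, and Fcgr3, Fcer1g and Fcgrt did not pass the test. Adjusted p values come from the quasi-likelihood test of edgeR, by Benjamini-Hochberg across every gene tested, and a gene was called changed where this value did not exceed 0.05. The 3 genes changed of 6 are to be read against 55.1% of all genes tested that were changed in this comparison, so the count itself is near the background. At the stricter thresholds used by the study, a log2 fold change of 2 or more in size with an adjusted p no higher than 0.01, 2 of 6 were higher, against 2.77% of all genes tested. These were Fcgr1 and Fcgr4, which the study had already placed in its IFN-response signature from these data. The share is therefore no independent evidence. Without eGFP supernatant replicate 2 the same 3 genes were changed. In bulk RNA, fewer expressing cells and less RNA per cell cannot be told apart.

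Fcgr1, the high-affinity receptor for monomeric immunoglobulin G, measured 72.8, 112.4 and 63.6 CPM in the 3 libraries of eGFP supernatant and 1294, 1120 and 1183 CPM in those of Ifnb1eGFP supernatant. The groups were far apart, and the highest value of the reference group was that of replicate 2. The log2 fold change was 3.85 (SE 0.186, a 14.5-fold rise, adjusted p = 1.68e-08), and 4.13 (SE 0.111, adjusted p = 1.08e-09) without that library. With rIFNβ the values were 1220, 1111 and 1132 CPM, against 58.4, 50.5 and 48.8 CPM in control, a log2 fold change of 4.46 (SE 0.192, 22-fold, adjusted p = 5.79e-09).

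Fcgr4, a receptor of intermediate affinity that binds immunoglobulin G2a and 2b, measured 68.4, 78.9 and 59.9 CPM in eGFP supernatant and 361.9, 308.5 and 336.4 CPM in Ifnb1eGFP supernatant. All libraries with IFNβ exceeded all without it. The log2 fold change was 2.28 (SE 0.0964, 4.86-fold, adjusted p = 5.83e-09), and 2.39 (SE 0.0895, adjusted p = 7.38e-09) without replicate 2 of eGFP supernatant. With rIFNβ the values were 346.4, 330.9 and 330.2 CPM, against 57.5, 59.6 and 52.4 CPM in control, a log2 fold change of 2.57 (SE 0.0978, 5.94-fold, adjusted p = 2.31e-09).

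Fcgr3, the low-affinity activating receptor, did not share the rise of the other activating receptors. It measured 694.7, 695.3 and 678.1 CPM in eGFP supernatant and 758.6, 691.0 and 710.4 CPM in Ifnb1eGFP supernatant, and these groups overlapped. The log2 fold change was 0.06 (SE 0.0468, adjusted p = 0.281), and 0.07 (SE 0.0545, adjusted p = 0.332) without replicate 2 of eGFP supernatant. The values were 609.2, 665.1 and 640.7 CPM in control and 618.9, 636.7 and 615.0 CPM with rIFNβ, a log2 fold change of -0.03 (SE 0.0468, adjusted p = 0.572).

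**Figure D1:**
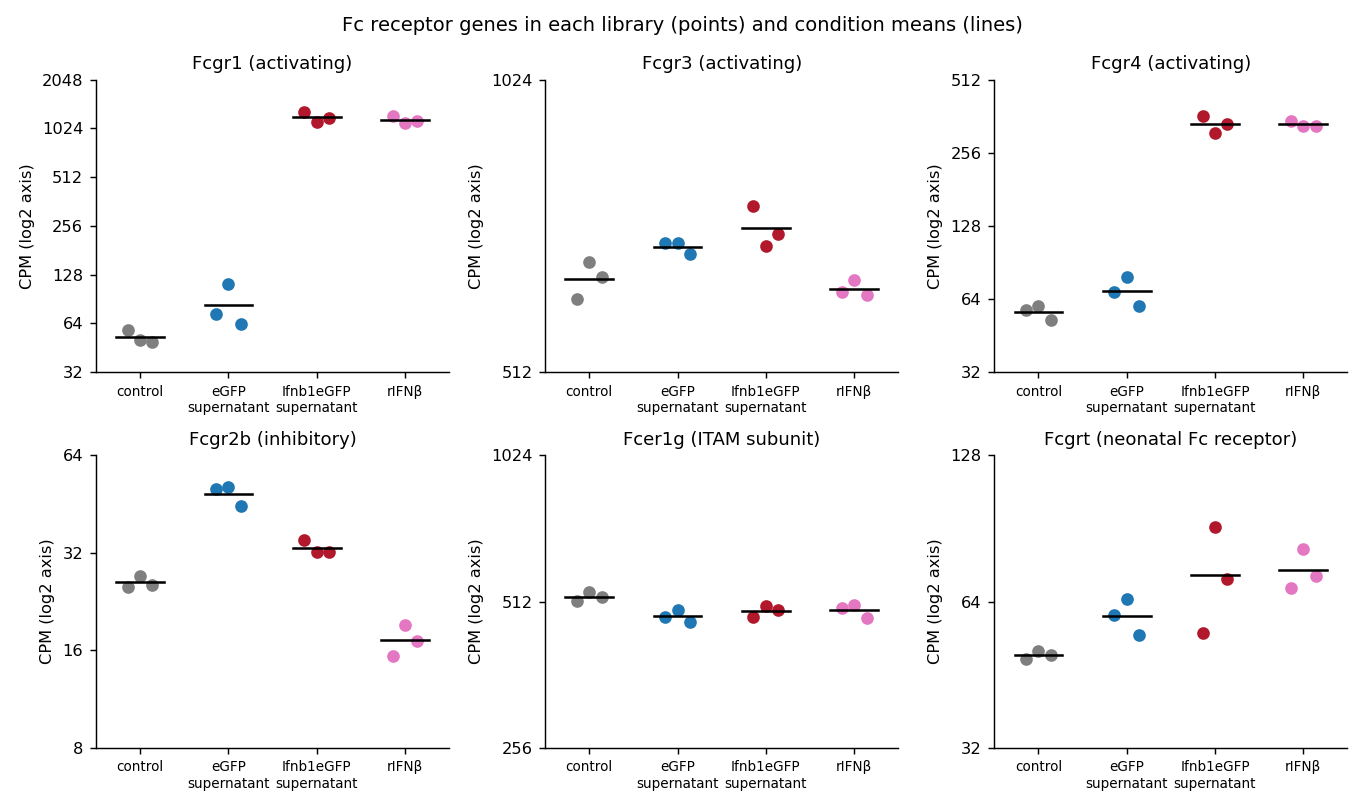
CPM of each Fc receptor gene in each of the 12 libraries (points, log2 axis) with the mean of the 3 libraries of a condition (line). Fcgr1 and Fcgr4 were high in both IFNβ conditions, Fcgr2b took a separate level in each of the 4 conditions, and Fcer1g stayed between 465.8 and 536.2 CPM.

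Fcgr2b, the inhibitory receptor, measured 50.5, 51.0 and 44.6 CPM in eGFP supernatant and 34.97, 32.2 and 32.3 CPM in Ifnb1eGFP supernatant. The groups did not overlap, and the log2 fold change was -0.56 (SE 0.0791, 0.68-fold, adjusted p = 0.000102), or -0.52 (SE 0.0895, adjusted p = 0.0007) without replicate 2 of eGFP supernatant. It measured 25.0, 27.2 and 25.6 CPM in control and 15.4, 19.1 and 17.1 CPM with rIFNβ, a log2 fold change of -0.59 (SE 0.0822, 0.664-fold, adjusted p = 8.36e-05). The fall with IFNβ was therefore seen from a higher start in supernatant and from a lower start in medium.

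Fcer1g, the γ chain that carries the ITAM for the activating receptors, measured 475.1, 490.9 and 465.8 CPM in eGFP supernatant and 476.3, 502.2 and 490.9 CPM in Ifnb1eGFP supernatant. The log2 fold change was 0.04 (SE 0.0419, adjusted p = 0.475), and 0.06 (SE 0.0465, adjusted p = 0.337) without replicate 2 of eGFP supernatant. For rIFNβ against control it was -0.09 (SE 0.0419, adjusted p = 0.0904), with values of 497.5, 504.6 and 474.0 CPM against 512.6, 536.2 and 522.2 CPM. The latter groups did not overlap. The small difference passed the threshold under 3 alternatives, edgeR's RLE factors in place of the TMM factors (log2 fold change -0.14, adjusted p = 0.0117), DESeq2 (-0.13, adjusted p = 0.000818) and a fit of the compared conditions alone (-0.12, adjusted p = 0.0126).

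Fcgrt, which salvages immunoglobulin G and albumin, rose with rIFNβ from 48.7, 50.6 and 49.7 CPM to 68.3, 82.0 and 72.4 CPM (log2 fold change 0.58, SE 0.145, adjusted p = 0.0052). In Ifnb1eGFP supernatant its 3 libraries were spread widely, at 55.3, 91.2 and 71.2 CPM. Those of eGFP supernatant were at 59.9, 64.6 and 54.6 CPM, and the groups overlapped. The log2 fold change was 0.28 (SE 0.144, adjusted p = 0.121). It was 0.34 (SE 0.164, adjusted p = 0.114) without replicate 2 of eGFP supernatant, and 0.40 (SE 0.0942, adjusted p = 0.00447) without Ifnb1eGFP supernatant replicate 1.

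In rIFNβ against control, which asks what IFNβ does without anything from melanoma cells, 4 of 6 genes were changed (Fcgr1, Fcgr4 and Fcgrt higher, Fcgr2b lower), where 55.3% of all genes tested were (30.7% higher and 24.6% lower). At the thresholds of the study 2 of 6 were higher, Fcgr1 and Fcgr4, against 2.99% of all genes. Both were chosen with their rise in these data known, so this share is no independent evidence either. The groups did not overlap for 3 of 6 genes in the supernatant comparison and for 5 of 6 here, where 59% and 66.1% of all genes tested did not. A test of whether the IFNβ effect differed with and without supernatant called 0 of 6 genes and 0 of all 15033 genes by edgeR, with 661 genes at an unadjusted p under 0.05, and 0 of 6 by DESeq2. The differences of the log2 fold changes were -0.60 (SE 0.237, adjusted p = 0.926) for Fcgr1, -0.29 (SE 0.131, adjusted p = 0.926) for Fcgr4 and 0.03 (SE 0.114, adjusted p = 0.963) for Fcgr2b. Without eGFP supernatant replicate 2 they were -0.32 for Fcgr1 and -0.18 for Fcgr4.

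**Figure D2:**
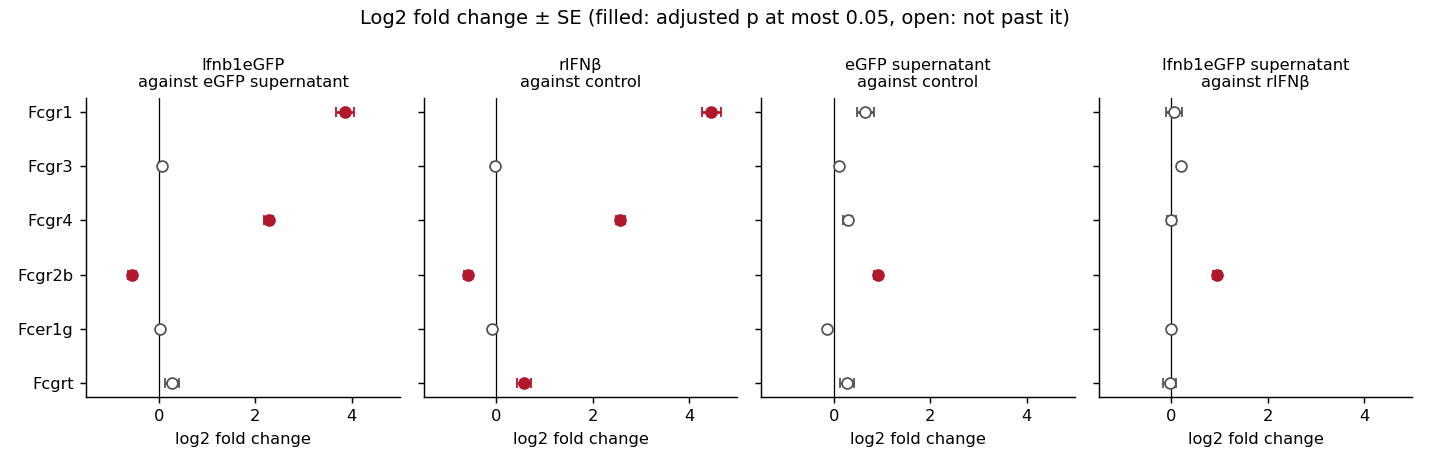
Log2 fold change ± SE of each gene from edgeR's quasi-likelihood model, in 4 panels for the 4 comparisons, with filled points for genes called changed. Fcgr1 and Fcgr4 changed with IFNβ in both of the left panels, and Fcgr2b is the filled point in all 4.

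The next question was whether supernatant matters beyond its IFNβ. Melanoma cell products, Dox residues and the melanoma cells' own medium, with its puromycin, cannot be told apart here. Each may have come with both supernatants, since both were from Dox-treated cells kept in that medium. Fcgr2b was the single member called, and it was about as much higher with supernatant in the presence of IFNβ as in its absence. The members were chosen with the higher Fcgr2b in supernatant already known, so the shares and ranks below are no independent evidence. Comparing Ifnb1eGFP supernatant with rIFNβ at the same stated IFNβ concentration, Fcgr2b was 1.92-fold higher in the supernatant (log2 fold change 0.94, SE 0.0816, adjusted p = 0.000746). It was the single gene called of 6, where 0.16% of all genes tested were called, and it ranked 3 of 15033 by p. In eGFP supernatant against control Fcgr2b was 1.88-fold higher (log2 fold change 0.91, SE 0.0802, adjusted p = 0.000963), again the single gene called of 6, where 0.299% of all genes were, and again at rank 3. The adjusted p was 0.00677 without eGFP supernatant replicate 2, at a log2 fold change of 0.88. With both IFNβ states averaged, 6 libraries against 6, the log2 fold change was 0.93 (SE 0.0572, adjusted p = 2.28e-05), and 0.905% of all genes were called. In a fit of the 6 libraries of Ifnb1eGFP supernatant and rIFNβ alone, the adjusted p of Fcgr2b was 0.0523 at a log2 fold change of 0.95.

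Per library, Fcgr2b ran from 15.4 to 19.1 CPM with rIFNβ, from 25.0 to 27.2 CPM in control, from 32.2 to 34.97 CPM in Ifnb1eGFP supernatant and from 44.6 to 51.0 CPM in eGFP supernatant. No pair of neighbours in this order overlapped. The lowest level was that of IFNβ without supernatant, and the highest that of supernatant without IFNβ. Counts of Fcgr2b per 100 counts of Fcgr3, its paralog, were 2.76 ± 0.258 (SD, n = 3), 4.06 ± 0.065, 4.61 ± 0.061 and 7.06 ± 0.423 in the same order.

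None of the other 5 genes was called with supernatant by edgeR. Fcgr3 was higher in Ifnb1eGFP supernatant than with rIFNβ in all libraries, by 0.21 on the log2 scale (SE 0.0468, adjusted p = 0.199), which passed the test without Ifnb1eGFP supernatant replicate 2 (adjusted p = 0.0326) and with DESeq2 (adjusted p = 0.00621). Averaged over both IFNβ states it was higher by 0.16 (SE 0.0331, adjusted p = 0.0549). Fcgr1 and Fcgr4 differed between the sources of IFNβ by 0.05 (SE 0.166, adjusted p = 0.928) and by less than 0.01 in size (SE 0.0915, adjusted p = 0.998). In eGFP supernatant against control Fcgr1 had a log2 fold change of 0.66 (SE 0.17, 1.58-fold, adjusted p = 0.204) and Fcgr4 of 0.29 (SE 0.0936, adjusted p = 0.348). Fcgr1 passed the threshold here with DESeq2 (adjusted p = 0.00951) and without the filter on low counts (adjusted p = 0.0153), and Fcer1g with DESeq2 (adjusted p = 0.0184). Without replicate 2 of eGFP supernatant, the library with raised interferon-stimulated genes, these were 0.38 (adjusted p = 0.357) and 0.18 (adjusted p = 0.866), beside 0.10 for Fcgr3 (adjusted p = 0.939) and -0.15 for Fcer1g (adjusted p = 0.508). In this comparison all 6 genes had groups that did not overlap, where 15.5% of all genes tested did, with Fcer1g lower and the other 5 higher in eGFP supernatant. In Ifnb1eGFP supernatant against rIFNβ that held for 2 of 6 genes, Fcgr2b and Fcgr3, against 12.8%.

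By condition, Fcgr1 was ordered control, eGFP supernatant, rIFNβ and Ifnb1eGFP supernatant, and the last 2 of these overlapped. Fcgr4 was lowest in control, then in eGFP supernatant, and its means of 335.6 CPM in Ifnb1eGFP supernatant and 335.8 CPM with rIFNβ could not be separated. The order of Fcgr3 was rIFNβ, control, eGFP supernatant and Ifnb1eGFP supernatant, where the first 2 overlapped, as did the last 2. Fcer1g was lowest in eGFP supernatant and highest in control, and its values in both IFNβ conditions overlapped with those of eGFP supernatant. Fcgrt was ordered control, eGFP supernatant, Ifnb1eGFP supernatant and rIFNβ, and the libraries of Ifnb1eGFP supernatant overlapped with both of its neighbours.

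The ratio of the activating sum (Fcgr1, Fcgr3 and Fcgr4, in CPM per kb) to Fcgr2b combines these changes. It is a description of RNA levels, without a test, and Fc receptor protein was not measured in these data. The ratio was 60.5, 59.4 and 60.1 in the control libraries, 34.6, 36.6 and 37.3 in eGFP supernatant, 150.5, 142.7 and 150.8 in Ifnb1eGFP supernatant and 312.0, 239.8 and 267.9 with rIFNβ. The 4 conditions did not overlap. With IFNβ the ratio was 4.09-fold higher in supernatant (log2 difference 2.03, SE 0.042) and 4.53-fold higher in medium (2.18, SE 0.11). These sizes depend on how the sum is formed. The log2 differences were 3.53 and 3.92 without Fcgr3 in the sum, and 2.63 and 2.93 with the mean of the 3 log2 levels in its place. Both differences were smaller than the main ones with the canonical transcript's length in place of the union of exons, at values given in the last section. Supernatant moved it the other way. It was 0.603-fold as high in eGFP supernatant as in control (log2 difference -0.73, SE 0.033) and 0.545-fold as high in Ifnb1eGFP supernatant as with rIFNβ (-0.88, SE 0.113). Without replicate 2 of eGFP supernatant the log2 differences were 2.04 with IFNβ in supernatant and -0.74 with supernatant in its absence. These comparisons share their groups of libraries, so they are not independent of each other.

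**Figure D3:**
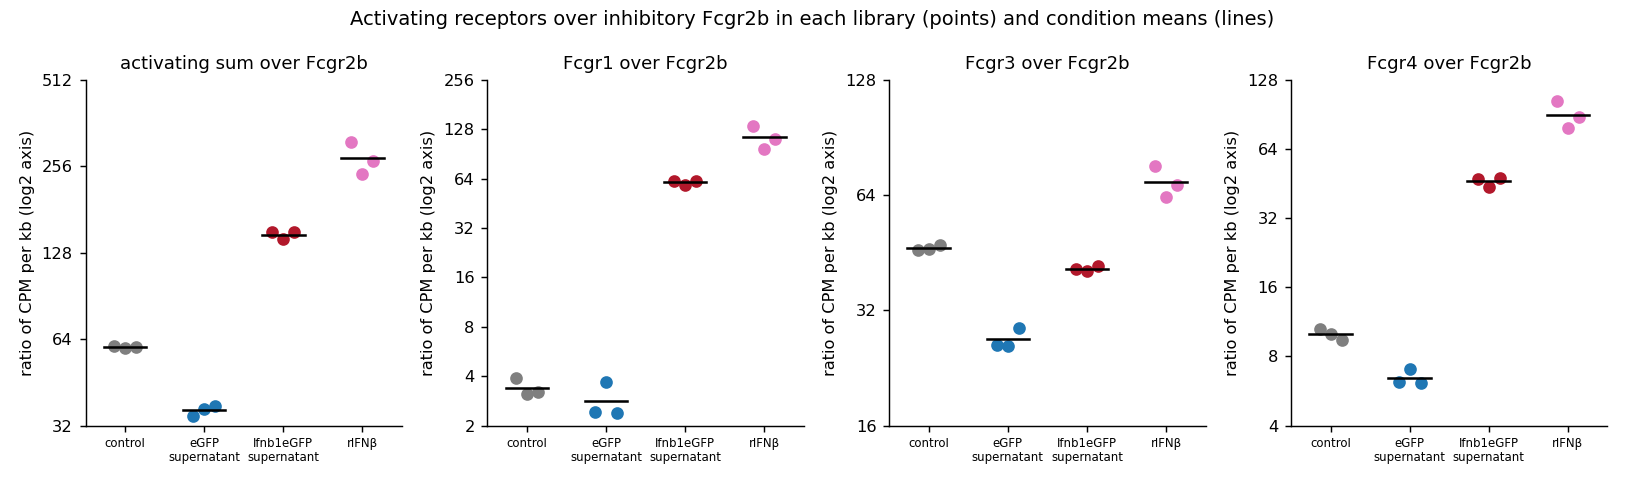
Ratio of activating receptors to Fcgr2b in CPM per kb, on log2 axes, for the activating sum and for each activating gene, with a point per library and a line at the mean of 3. The sum and each single ratio were highest with rIFNβ, and in all but the Fcgr1 ratio the eGFP supernatant libraries lay below all others.

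The single ratios behaved differently. Fcgr1 over Fcgr2b rose from 3.41 ± 0.439 (SD, n = 3) in control to 114.0 ± 17.8 with rIFNβ, and from 2.83 ± 0.745 in eGFP supernatant (2.39 and 2.42 without replicate 2) to 60.6 ± 2.04 in Ifnb1eGFP supernatant. The control and eGFP supernatant libraries overlapped in this ratio. Fcgr4 over Fcgr2b was 9.98 ± 0.569 in control, 6.47 ± 0.526 in eGFP supernatant, 46.3 ± 2.16 in Ifnb1eGFP supernatant and 90.2 ± 12 with rIFNβ. Fcgr3 over Fcgr2b, 46.6 ± 0.753 in control, 26.9 ± 1.67 in eGFP supernatant, 41.1 ± 0.545 in Ifnb1eGFP supernatant and 69.1 ± 6.58 with rIFNβ, had the reverse order of Fcgr2b.

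At the level of RNA, IFNβ also changed which receptor genes made up the activating side. Fcgr3 gave 77.7% ± 1.45 of the activating sum in control and 74.3% ± 3.38 in eGFP supernatant, but 27.8% ± 0.598 in Ifnb1eGFP supernatant and 25.4% ± 0.952 with rIFNβ. Fcgr1 went from 5.68% ± 0.683 and 7.83% ± 1.99 to 40.9% ± 0.262 and 41.6% ± 0.972. In Ifnb1eGFP supernatant, whether Fcgr1 or Fcgr3 was then the larger part depended on length. With the canonical transcript's length in place of the union of exons, Fcgr1 gave 38.4% ± 0.345 and Fcgr3 39.4% ± 0.695 there. With rIFNβ Fcgr1 stayed the larger part under that length, at 39.6% ± 1.11 against 36.6% ± 1.2 for Fcgr3. Fcgr4 went from 16.6% ± 0.903 and 17.9% ± 1.45 to 31.3% ± 0.493 and 33.0% ± 0.0203. The activating sum was 265.7 ± 9.28 CPM per kb in control and 300.7 ± 17.3 in eGFP supernatant, and 838.8 ± 57.1 in Ifnb1eGFP supernatant and 795.1 ± 22.1 with rIFNβ. Fcer1g did not rise with it. Its level was 1.7 ± 0.0231 times the activating sum in control and 1.37 ± 0.0423 times in eGFP supernatant, and 0.506 ± 0.0474 times in Ifnb1eGFP supernatant and 0.534 ± 0.0189 times with rIFNβ. The position of Fcer1g above or below the sum also depended on length, and its fall relative to the sum did not. With the canonical transcript's length it was 1.14, 0.937, 0.434 and 0.465 times the sum in the same order, and in plain CPM 0.701, 0.568, 0.218 and 0.233 times. Without eGFP supernatant replicate 2 Fcgr1 gave 6.69% and Fcgr3 76.1% of the sum in that condition, and Fcer1g was 1.39 times the sum.

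**Figure D4:**
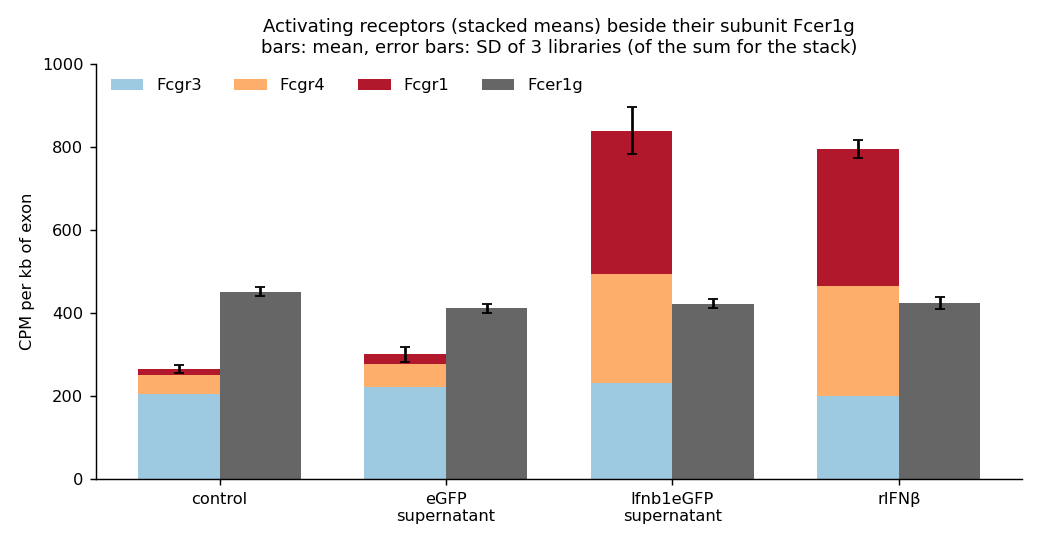
Mean level in CPM per kb of exon by condition, with Fcgr3, Fcgr4 and Fcgr1 stacked beside Fcer1g, and error bars for the SD of 3 libraries (of the sum, for the stack). The stack reached 838.8 and 795.1 in the IFNβ conditions, above the Fcer1g bar, while it was below that bar in the others, an order that depends on the length used.

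Of 15 other Fc and immunoglobulin receptors and their partners, 4 passed the filter on low counts. B2m, the light chain of the neonatal Fc receptor and of MHC class I, rose by a log2 fold change of 2.02 (adjusted p = 9.75e-10) in Ifnb1eGFP against eGFP supernatant and 1.96 with rIFNβ. Trim21, a cytosolic Fc receptor that is also a ubiquitin ligase, rose by 2.17 (adjusted p = 6.05e-09) and 2.43. Fcrl1, a B cell gene, rose by 0.73 (adjusted p = 0.00621) and 0.72 at levels of at most 2.0 CPM, beside the higher B cell marker sums given above, whose part in this was not tested. Tyrobp, an ITAM adaptor like Fcer1g, had -0.08 (adjusted p = 0.0767) in the supernatant comparison and fell by 0.10 (adjusted p = 0.0314) with rIFNβ.

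The genes downstream of the receptors moved in both directions. Among 23 ITAM signaling genes, 11 rose and 8 fell in Ifnb1eGFP against eGFP supernatant, with a median log2 fold change of 0.05, where 30.1% of all genes tested rose and 25% fell around a median of 0.03. With rIFNβ 10 rose and 9 fell, where 30.7% of all genes tested rose and 24.6% fell. The Src family kinase Lyn (log2 fold change 1.94), the adaptor Lcp2 or SLP-76 (1.76) and the phosphoinositide 3-kinase adaptor Pik3ap1 (1.52) rose. Malt1, the paracaspase of the Card9 complex (-2.74), the lipid kinase Pik3cb (-1.24) and the adaptor Lat2 (-0.55) fell. Syk, named after its values were seen, rose by 0.46 (adjusted p = 7.18e-07) and by 0.36 with rIFNβ.

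On the inhibitory side, 7 of 12 genes rose and 1 fell, with a median of 0.42, against 30.1% and 25% of all genes tested. With rIFNβ 8 rose and 3 fell, against 30.7% and 24.6%. The phosphatases Ptpn22 (1.67), Ptpn6 or SHP-1 (0.78) and Inpp5d or SHIP1 (0.58) rose, the last being the one recruited by the Fcgr2b motif, and the adaptor Dok2 (-1.21) fell. These 3 phosphatase genes and Fcgr2b moved in opposite directions with IFNβ. Of the phagocyte NADPH oxidase, which makes the oxidative burst, the catalytic subunit Cybb (0.44) and Ncf1 (0.26) rose in the supernatant comparison, and Ncf4 (-0.59) and Cyba (-0.60) fell. With rIFNβ Cyba had -0.42 (adjusted p = 0.0648).

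**Figure D5:**
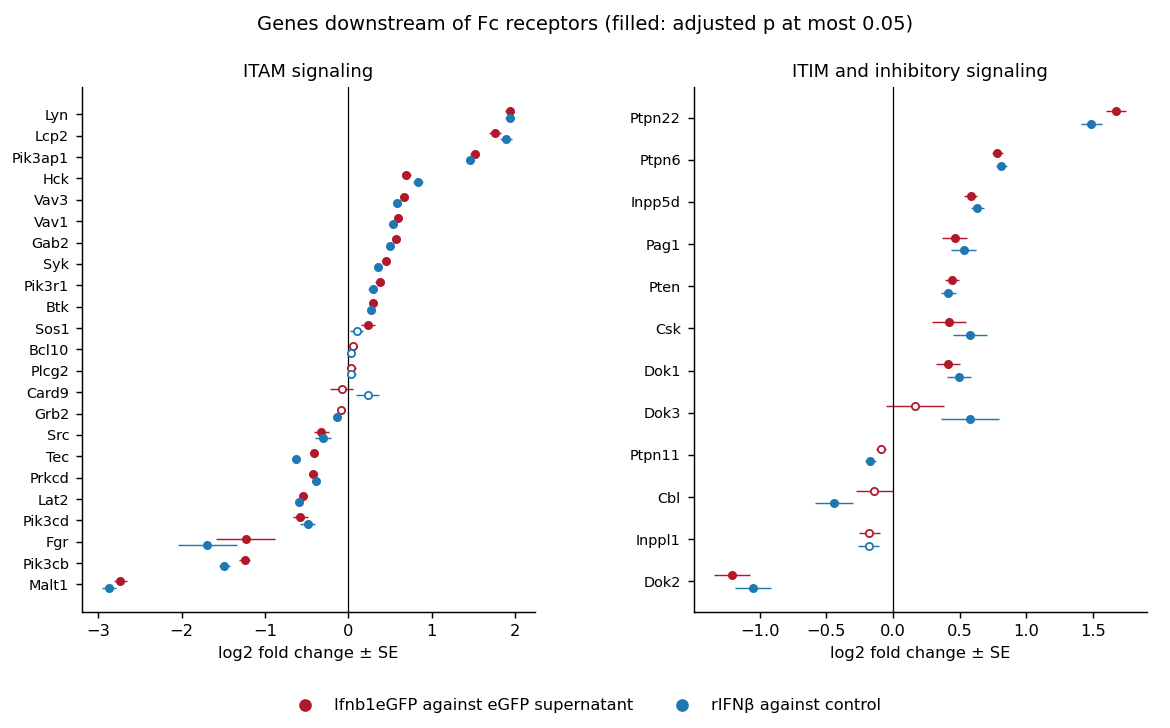
Log2 fold change ± SE of ITAM signaling and inhibitory signaling genes in Ifnb1eGFP against eGFP supernatant (red) and rIFNβ against control (blue), with filled points for genes called changed. Genes are ordered by the first comparison, from Malt1 at -2.74 to Lyn at 1.94 among the ITAM genes.

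Of 16 genes of the phagocytic cup and its actin, 4 rose and 6 fell with a median of -0.04, against 30.1% and 25% of all genes tested. With rIFNβ 4 rose and 7 fell, against 30.7% and 24.6%. The adaptor Fyb (1.08), the actin nucleation factor Was (0.55) and the WAVE complex member Nckap1l (0.40) rose, while the phagocytic myosin Myo10 (-1.08), cofilin Cfl1 (-0.44) and the GTPase Rac2 (-0.47) fell. Of 7 other receptors that signal through Fcer1g, 4 passed the filter. The C-type lectin Clec4d (0.31) and the immunoglobulin-like receptor Pira2 (0.55) rose in the supernatant comparison, and the lectins Clec4e or Mincle (-1.28) and Clec4n or Dectin-2 (-0.37) fell. Clec4n had -0.18 (adjusted p = 0.306) with rIFNβ, whereas Clec4d (0.17), Pira2 (0.55) and Clec4e (-1.51) were called in the same directions. With supernatant averaged over both IFNβ states, Ptpn22 was lower by 0.26 (log2 fold change -0.26, adjusted p = 0.0475) and Clec4d higher by 0.24 (adjusted p = 0.0329), and no other gene of these lists was called. Without eGFP supernatant replicate 2, the lists of inhibitory signaling, the phagocytic cup, other Fc receptors and receptors that pair with Fcer1g had the same calls in Ifnb1eGFP against eGFP supernatant. Of the ITAM signaling genes 10 rose and 8 fell, as the call of Sos1 was lost, which is named after its values were seen. No gene of these 5 lists changed sign, and the log2 fold changes moved by at most 0.205.

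The genes whose log2 CPM over the 12 libraries were most like each member's are given as a description, since all share the 4 conditions. For Fcgr2b they were Mxi1 (Pearson's r 0.963), Bmp2k (0.957) and Scpep1 (0.945). For Fcgr1 they were Tcstv4, Gbp9 and Lgals9, and for Fcgr4 Setdb2, Cgas and Arel1, each at 0.999. For Fcgr3 they were Edem1 (0.931), Slc35b4 (0.922) and Ube2k (0.919), and for Fcgrt Commd9 (0.976), Smox (0.972) and Arsa (0.963). Fcer1g, which varied least, had the weakest likeness, to Dpep2 (0.88), Nadk (0.875) and Gm10524 (0.795).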

How the data were processed

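Total RNA of M2-like BMDM was sequenced in 12 TruSeq Stranded Total RNA libraries. The authors aligned reads with RSEM 1.3.3 and deposited estimated counts (expected counts) per gene, without normalization, and these were the values used. Their build is named as GRCm39 together with mm10. Neither the strand setting nor the annotation version is given in the sources used here. Gene positions and exon lengths were taken from GRCm39 with GENCODE M39, which held 56017 of the 56748 genes, and promoters from RefSeq on GRCm38.p6. Conditions came from the sample labels, and 0 columns were left over.

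The members and lists were chosen with earlier results of these data known, among them the higher Fcgr2b in supernatant, so no gene or list is independent evidence. Counts were rounded, since 12.027% of values were not whole. In R 4.3.3, edgeR 4.0.16 was used with filterByExpr (15033 genes kept), TMM factors and 1 quasi-likelihood model over the 12 libraries. P values were adjusted by Benjamini-Hochberg over all genes tested. SEs were obtained as the log2 fold change over the root of its F statistic. CPM used TMM-scaled totals, and CPM per kb the union of exons. Log2 CPM used a prior count of 2. The model was the one test of single genes, because 0.1 is the smallest p that an exact permutation of 3 against 3 libraries allows. The code was tested on simulated data.

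Named genes were all 6 members, the 3 genes most like each, every other Fc receptor that passed the filter, and up to 3 genes per list and direction with the smallest adjusted p in Ifnb1eGFP against eGFP supernatant. Fyb was matched through an older symbol. Some genes of the lists are not reported here. The fits were repeated with DESeq2 1.42.0, RLE factors, library totals alone, no filter, the replicate block, a fit restricted to the compared conditions, and without each library, and for the ratio CPM without length, the sum without Fcgr3 and the mean of log2 levels. The canonical transcript's length, the composition of the activating sum under other lengths, and that composition and the lists without eGFP supernatant replicate 2 were added after seeing the data. Counting error is small at these depths, and 3 libraries per condition limit the precision.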

Additional observations from a re-analysis of the deposited data

How the results depend on the processing

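The calls of Fcgr1, Fcgr4 and Fcgr2b in both IFNβ comparisons and of Fcgr2b in eGFP supernatant against control were kept under every alternative run, as was that of Fcgrt with rIFNβ. For Ifnb1eGFP supernatant against rIFNβ the count of 1 changed gene became 0 when the fit held the compared conditions alone and 2 with DESeq2, and ran from 1 to 2 with each library left out (2 without Ifnb1eGFP supernatant replicate 2). For eGFP supernatant against control it became 3 with DESeq2 (Fcgr1, adjusted p = 0.00951, and Fcer1g, 0.0184, added) and 2 without the filter on low counts (Fcgr1, 0.0153). For supernatant averaged over both IFNβ states it became 2 with DESeq2 (Fcgr3, 0.00133) and ran from 1 to 2 with each library left out (2 without Ifnb1eGFP supernatant replicate 2, Fcgr3, 0.0254). The cause was not tested. Shares of all genes called under these alternatives are not given here, so the added calls are not set against a background.

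The log2 difference of the ratio in Ifnb1eGFP against eGFP supernatant moved from 2.03 to 1.97 with CPM not divided by length, 3.53 without Fcgr3 in the sum, 2.63 with the mean of log2 levels and 1.71 with the canonical transcript's length. In rIFNβ against control it moved from 2.18 to 3.92, 2.93 and 1.81 under the last 3 of these. In eGFP supernatant against control it moved from -0.73 to -0.53 without Fcgr3 and -0.57 with the mean of log2 levels.

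Sign changes were limited to 19 values near 0 that passed no test. In Ifnb1eGFP supernatant against rIFNβ Fcgr4 became 0.0127 with RLE factors, 0.0064 without the filter, 0.0125 with DESeq2 and 0.0085 with only the compared conditions, and Fcer1g 0.0055, 0.0003, 0.0054 and 0.0023. In the fits without 1 library each, log2 fold changes ran from -0.0362 to 0.1204 for Fcgr2b in the interaction of IFNβ and supernatant, from -0.0138 to 0.0927 for Fcgr3 in Ifnb1eGFP against eGFP supernatant, from -0.0324 to 0.0170 for Fcer1g in Ifnb1eGFP supernatant against rIFNβ, from -0.2301 to 0.1298 for Fcgrt in Ifnb1eGFP supernatant against rIFNβ, from -0.0538 to 0.0569 for Fcgr4 in Ifnb1eGFP supernatant against rIFNβ.

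The replicate number as a block changed no call of a member, with 3, 4, 1, 1, 1 and 0 genes changed of 6 as before, and Fcgr2b at a log2 fold change of 0.93 (adjusted p = 6.67e-05) in the averaged supernatant comparison. Libraries with the same number deviated together with r of 0.0582 to 0.252 over 18 pairs, 13 of them over 0.1, and 12 of 12 libraries were closest to their own number, which is a hint from the data and not the design.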
